A study of Mus musculus with 8 samples.

Results

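The goblet cell mucus genes described here are 7 genes chosen by name, Muc2, Muc13, Tff3, Fcgbp, Zg16, Agr2 and Spdef, out of 36161 gene names on the array, with no threshold on measured values. Each had 1 probe, printed as 1 spot per array. Expression was measured in mouse small intestine late in gestation (E18.5) on 8 single-colour Agilent arrays, 4 labelled control and 4 labelled Rfx6 fl/fl Ngn3-cre, here called mutant. Rfx6 is a transcription factor gene that endocrine cells of the gut and pancreas express, and the comparison asks which genes change when it is deleted from that lineage. Every embryo carried a floxed Rfx6 allele: control replicates 1, 3 and 4 were Rfx6 fl/+, control replicate 2 was Rfx6 fl/fl, and all 4 mutants were Rfx6 fl/fl with a Cre transgene driven by Ngn3, a gene of endocrine progenitors. The labels name Cre in mutants alone, and its own effect and that of the deletion cannot be told apart. Litters are not named, and the p-values measure the spread between these 8 samples only. For mutant replicates 2, 3 and 4 the description field gives a different Rfx gene from the Rfx6 of their titles.

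Goblet cells are secretory cells of the gut epithelium that make the mucus gel. Muc2 is its gel-forming mucin, a long glycoprotein that is folded in the endoplasmic reticulum, decorated with O-linked sugars, packed into granules and released to swell in the lumen. Goblet and endocrine cells both descend from progenitors that express Atoh1. Ngn3 then marks the endocrine branch, while Spdef, an ETS-family transcription factor, promotes goblet cell maturation.

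All measurements of a gene rest on its single 60-base probe. The probes for the gel mucin and for 2 secreted proteins that bind into or onto mucus are shown, to make plain which stretch of each transcript was read. They are written 5′ to 3′ in lower case with no base marked, as given in the array files, which use genome build mm9. The Muc2 probe lies on the plus strand at chr7:148940000-148940059, the Fcgbp probe on the plus strand at chr7:28905517-28905576 and the Zg16 probe on the minus strand at chr7:134193837-134193896.
Muc2: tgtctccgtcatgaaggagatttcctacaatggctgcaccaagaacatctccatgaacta
Fcgbp: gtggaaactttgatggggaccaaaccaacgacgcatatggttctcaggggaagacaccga
Zg16: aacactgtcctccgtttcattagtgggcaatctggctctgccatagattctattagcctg

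The other probes lie on mm9 at chr16:33819909-33819968 (Muc13, plus strand), chr17:31262279-31262338 (Tff3, minus strand), chr12:36730506-36730565 (Agr2, plus strand) and chr17:27851401-27851460 (Spdef, minus strand). Which exon or UTR each probe falls in was not analysed here. GC content was lowest for Muc13 (40% of bases) and highest for Spdef (55%).

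All 7 genes were well above background on all 8 arrays, and none of the 7 passed the test for a difference between the groups. Levels are log2 spot intensity minus the 75th percentile of the array, and levels of different probes are not compared with each other. In limma, adjusted over all 35471 probes tested, 0 of the 7 passed an adjusted p of 0.05, beside 0.0423% of all probes tested (0.00282% higher and 0.0395% lower in the mutants). At an unadjusted p under 0.05 the count was also 0, beside 5.05% of all probes. In 0 of the 7 did the groups separate without overlap, beside 4.38% of all probes. By mean, 4 were higher in the mutants and 3 lower, with a median difference of 0.04 beside 0.02 over all probes tested. The RNA came from bulk tissue, in which fewer cells of a type and less RNA per cell cannot be told apart.

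**Figure D1:**
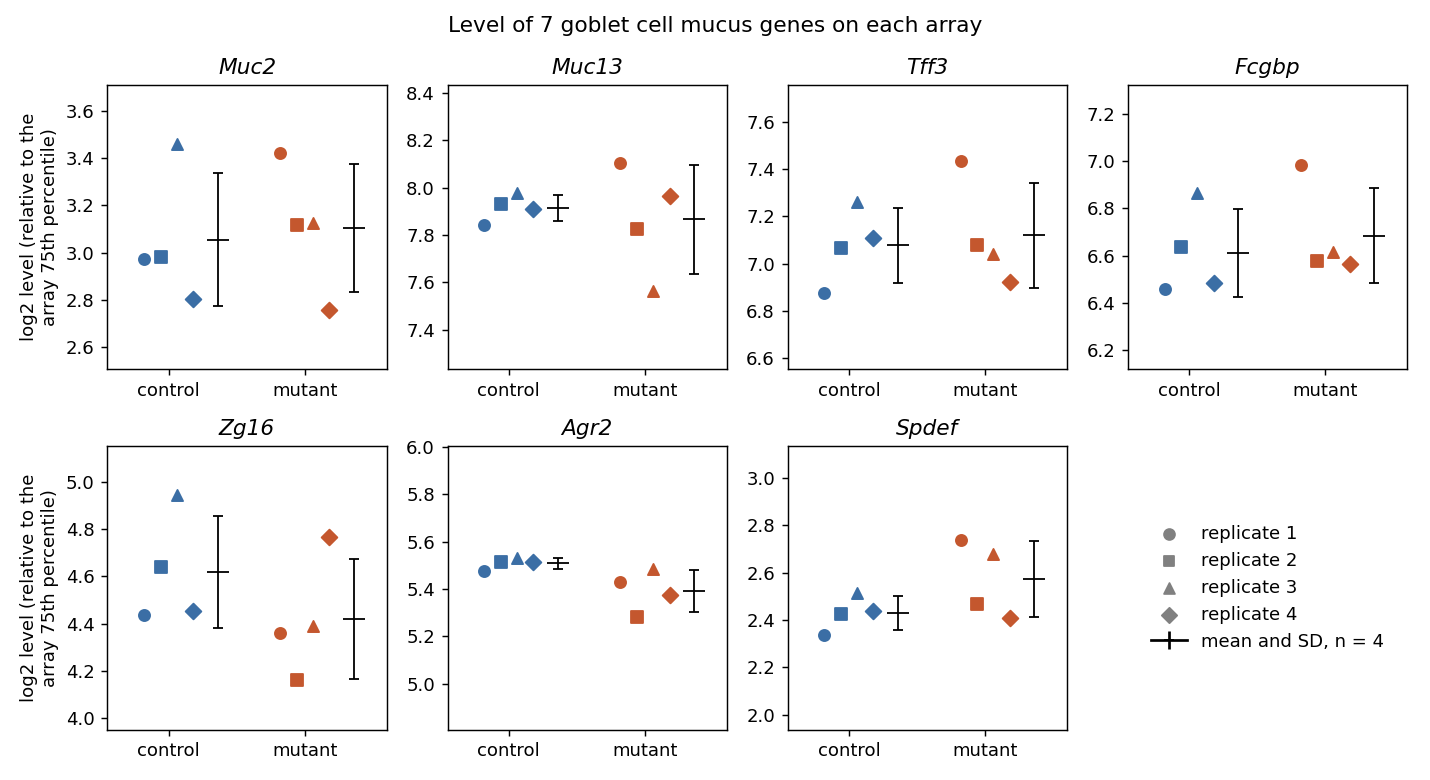
Log2 level relative to the array's 75th percentile (y axis, every panel spans 1.2 units) for each gene on each control (blue) and mutant (orange) array, with symbols for the replicate number and black bars for the mean and SD of 4 arrays. In all 7 panels the groups overlap, and control replicate 3 or mutant replicate 1 is the highest array.

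Among the mucins, Muc2 stood at 2.97, 2.98, 3.46 and 2.81 in control replicates 1 to 4 and at 3.42, 3.12, 3.13 and 2.76 in mutant replicates 1 to 4. One array in each group was high, control replicate 3 and mutant replicate 1, and of the remaining mutants replicates 2 and 3 lay above, and replicate 4 below, the 3 remaining controls. The means were 3.06 ± 0.28 and 3.11 ± 0.27 (SD, n = 4 each), a difference of 0.05 (SE 0.18, adjusted p = 0.949 by limma). The 95% interval of the difference, from limma's standard error and not adjusted for the number of genes, ran from -0.36 to 0.46, or 0.779-fold to 1.38-fold.

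A second probe that the array files describe as mucin 2, but name for an Ensembl transcript, falls outside the choice by name and was read after its description was found. It lies at chr7:148886795-148887262, a span longer than its 60 bases. Its means were -1.28 ± 0.16 in controls and -1.20 ± 0.38 in mutants (SD, n = 4 each), a difference of 0.07 (SE 0.19, adjusted p = 0.924 by limma). Mutant replicate 1 was again the highest mutant array, at -0.88, and mutant replicate 4 the lowest, at -1.72. The control arrays did not repeat the Muc2 order, since control replicate 3 lay among the others at -1.20.

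Muc13 encodes a mucin that spans the cell membrane and is also made by absorptive cells. Its control levels were 7.84, 7.93, 7.98 and 7.91, and its mutant levels 8.10, 7.83, 7.56 and 7.97. The controls lay close together, and the mutants spread to both sides of them, with replicate 1 above and replicates 2 and 3 below every control. Without mutant replicate 3 the sign turned, at 0.05. The means were 7.91 ± 0.06 and 7.87 ± 0.23 (SD, n = 4 each), a difference of -0.05 (SE 0.12, adjusted p = 0.923 by limma).

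Tff3, a small trefoil peptide secreted with Muc2, had control levels of 6.88, 7.07, 7.26 and 7.11 and mutant levels of 7.44, 7.08, 7.04 and 6.92. Mutant replicate 1 was the highest array and control replicate 1 the lowest, and the other mutants lay inside the control range. The means were 7.08 ± 0.16 and 7.12 ± 0.22 (SD, n = 4 each), with a difference of 0.04 (SE 0.14, adjusted p = 0.944 by limma).

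Fcgbp encodes a large secreted protein with von Willebrand D domains that is found in the mucus gel. Control levels were 6.46, 6.64, 6.86 and 6.48, and mutant levels 6.99, 6.58, 6.61 and 6.56. Mutant replicate 1 stood apart from the other 3 mutants, which lay within a narrow band inside the control range. The means were 6.61 ± 0.19 and 6.69 ± 0.20 (SD, n = 4 each), a difference of 0.07 (SE 0.14, adjusted p = 0.895 by limma).

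Zg16 encodes a lectin-like protein that goblet cells secrete into mucus and that is also known from the zymogen granules of pancreatic acinar cells. Its control levels were 4.44, 4.64, 4.94 and 4.45, and its mutant levels 4.36, 4.16, 4.39 and 4.77. Mutant replicates 1, 2 and 3 lay below every control, and mutant replicate 4 lay above 3 of them. The difference between the means, 4.62 ± 0.24 and 4.42 ± 0.25 (SD, n = 4 each), was -0.20 (SE 0.16, adjusted p = 0.828 by limma), and its 95% interval ran from -0.57 to 0.17. This was the difference of largest size among the 7 with all arrays. With 1 array left out it ranged from -0.09 (without control replicate 3) to -0.31 (without mutant replicate 4), and without mutant replicate 2 it was -0.11.

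Because of that second source, acinar genes were read beside Zg16. Of 17 acinar genes listed, 9 were well above background on all 8 arrays, and 4 more entered the test with fewer arrays, 1 of them (Cela2a) through the mutants alone. The 9 all had a higher mean in the mutants, with a median of 1.09, and in 3 of them the groups did not overlap, beside 2.81% of all probes for a higher mutant group. All of the 9 but Cpb1, Clps and Sycn had an unadjusted p under 0.05 in limma, beside 5.05% of all probes. Of the 13 tested 0 passed the adjusted threshold in limma. An unadjusted p under 0.05 was found for 10 of the 13, a count raised by the way some of them entered the test. The 4 that entered with fewer arrays are all among the 10 and all count in the sum that follows. The summed level of the 13, on the log2 scale, was 2.49 to 2.89 in controls and 3.00 to 4.57 in mutants. The separation of the sums rests in part on the 4. Clps and Ctrb1, of the 9, stood at 2.02 and 0.25 on mutant replicate 2, below 2.12 and 0.58 on control replicate 3. Amy2a5, of the 4, stood at 0.16 and -1.88 on these arrays. Cela2a, an acinar elastase, was well above background on 0 of 4 controls and on 4 of 4 mutants, the group through which it entered the test. Amy2a5 and Cela2a, both of the 4 with fewer arrays, each passed in 2 of 16 alternatives (lowest adjusted p = 0.0336 and 0.0326 by limma). Mutant replicate 4 held both the highest acinar sum and the highest Zg16 of the mutants, while mutant replicate 2 held the lowest of both. Between the groups the order differed. The 9 acinar genes above background on all arrays had higher means in the mutants, but Zg16 was below every control on mutant replicates 1, 2 and 3. Zg16 was highest on control replicate 3, at 4.94. The part of acinar RNA in the Zg16 values was not tested.

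Of the 2 genes that act inside the cell, Agr2 encodes a protein disulphide isomerase of the endoplasmic reticulum that Muc2 needs for its assembly. Its control levels were 5.48, 5.52, 5.53 and 5.51, and its mutant levels 5.43, 5.28, 5.49 and 5.37. The controls fell within 0.054 of each other, and mutant replicates 1, 2 and 4 lay below all of them. The means were 5.51 ± 0.02 and 5.39 ± 0.09 (SD, n = 4 each), a difference of -0.12 (SE 0.08, adjusted p = 0.828 by limma). The interval of -0.31 to 0.07 corresponds to 0.808-fold to 1.05-fold.

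Spdef had control levels of 2.34, 2.43, 2.51 and 2.44 and mutant levels of 2.74, 2.47, 2.68 and 2.41. Mutant replicates 1 and 3 lay above every control, and replicates 2 and 4 lay within the control range. The means were 2.43 ± 0.07 and 2.57 ± 0.16 (SD, n = 4 each), a difference of 0.14 (SE 0.10, adjusted p = 0.828 by limma). Its interval, -0.09 to 0.38, included 0. With 1 array left out the difference ranged from 0.09 (without mutant replicate 1) to 0.20 (without mutant replicate 4).

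**Figure D2:**
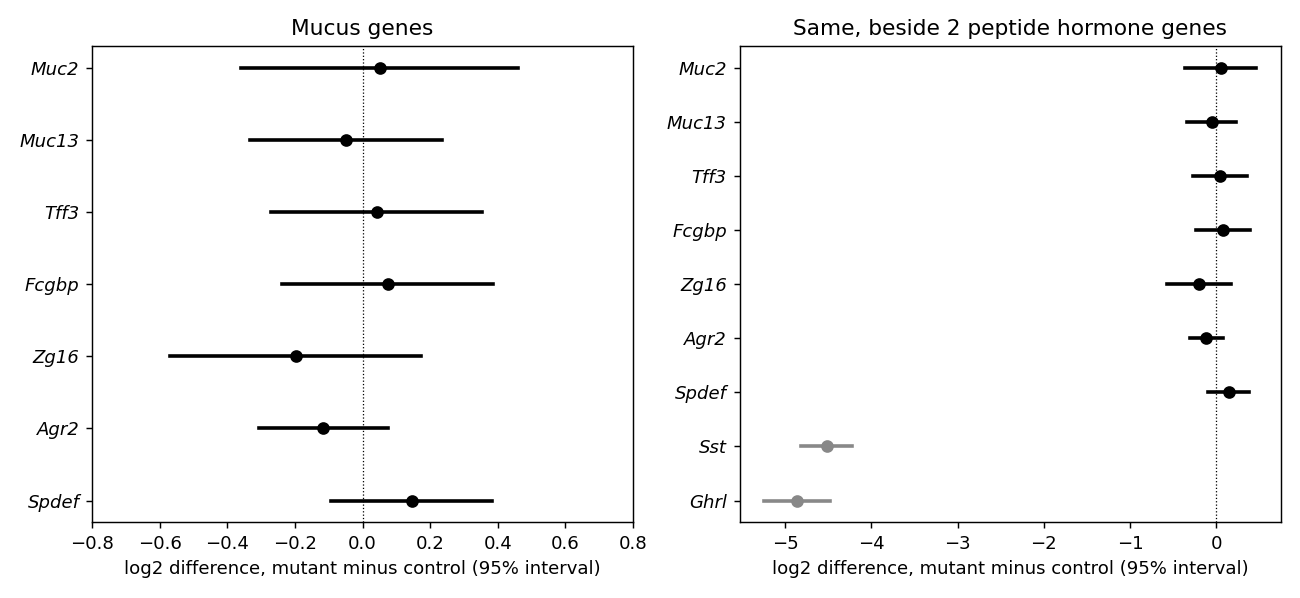
Log2 difference, mutant minus control, with its 95% interval from limma, for the 7 genes (left) and for the same genes beside the peptide hormone genes Sst and Ghrl in grey (right, wider axis). All 7 intervals include 0 and lie within -0.57 to 0.46, while Sst and Ghrl stood at -4.52 and -4.86.

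The bounds of the 7 intervals lay between 0.674-fold and 1.38-fold. Given each gene's SE and the smallest moderated t among the called probes (8.41), a difference of 0.70 for Agr2 to 1.51 for Muc2 would have been needed to pass. Smaller differences would not have been called at these SEs. On the same arrays the hormone genes Sst, with means of 1.44 ± 0.20 and -3.08 ± 0.16, and Ghrl, with 3.49 ± 0.30 and -1.37 ± 0.19 (SD, n = 4 each), separated the groups by far more. The hormone gene Gip was also called, at 1.85 to 2.38 in controls and well above background on 1 of 4 mutants (adjusted p = 8.4e-06 by limma).

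The 7 genes varied between embryos by 1.19-fold (Agr2) to 1.72-fold (Zg16) from the lowest to the highest of the 8 arrays. Within groups the SD was 0.023 to 0.28, and it was larger in the mutants for 6 of the 7 genes, beside 72.5% of all probes tested. Probes printed as 8 or more spots give a measure of spot noise: their median SD within an array was 0.047 to 0.051 for those above the 75th percentile. The SD of Agr2 in controls was below that range, and every other SD of the 7 genes in either group was above it.

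The extremes fell on few arrays. Mutant replicate 1 was the highest of all 8 arrays for Muc13, Tff3, Fcgbp and Spdef, and control replicate 3 for Muc2, Zg16 and Agr2. These levels are relative to the 75th percentile of each array, which was lowest on mutant replicate 1 (788, others 879 to 1027). Before that scaling, intensity was highest on mutant replicate 4 for Muc13, control replicate 3 for Tff3 and Fcgbp, and mutant replicate 3 for Spdef. The part of scaling in these extremes was not tested. All 7 genes were above their own 8-array mean on control replicate 3, with a median deviation of 0.16, and 5 of 7 on mutant replicate 1, with a median deviation of 0.24. Other lists moved with these arrays. On mutant replicate 1 the median deviation was 0.28 for 8 general epithelial genes, 0.23 for 8 enterocyte genes and 0.27 for 7 mesenchyme and muscle genes. On control replicate 3 it was 0.02 for epithelium and -0.33 for mesenchyme and muscle. Their part in the mucus gene values was not tested.

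**Figure D3:**
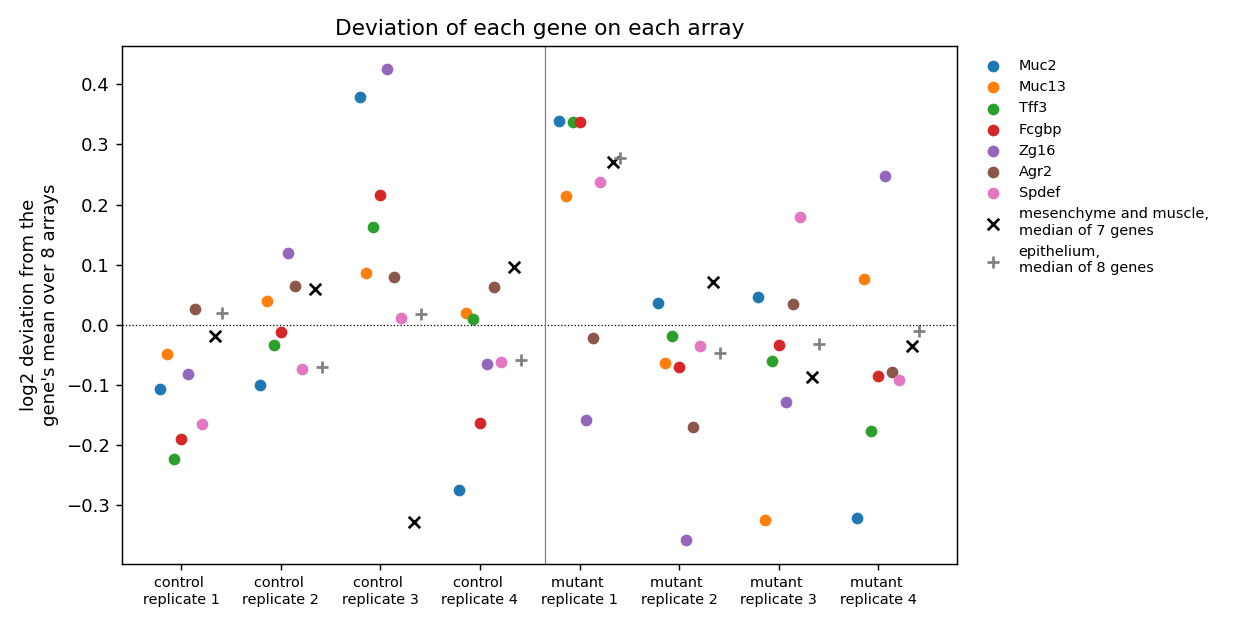
Deviation of each gene from its own mean over the 8 arrays (y axis, log2), for each array, with the median deviation of 7 mesenchyme and muscle genes (crosses) and 8 general epithelial genes (plus signs). All 7 mucus genes lie above 0 on control replicate 3, where mesenchyme and muscle genes lie lowest, and Muc2, Tff3 and Fcgbp lie near 0.34 on mutant replicate 1.

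Mutant replicate 1 also stood apart over the whole array. Its mean correlation with the other 7 arrays across probes was 0.975, against 0.989 to 0.990 for the others, where probes are not independent replicates. Without it the differences of Muc2, Tff3 and Fcgbp were -0.05, -0.06 and -0.03, each with the sign turned, that of Muc13 was -0.13, and none of the 7 genes passed. The Rfx6 probe was at -5.52 on this array, where it was not well above background, and at -3.37 to -3.02 on the other mutants, beside -3.48 to -2.93 in controls (adjusted p = 0.828 by limma), and whether it lies in the deleted part is not known here, so it does not check the labels. The 75th percentile of intensity ran from 788 (mutant replicate 1) to 1027 (mutant replicate 4), and the share of probes well above background from 59.7% to 69.9%.

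Relations among the 7 genes were read over the 8 arrays, as 21 pairs with exact two-sided permutation tests. Pearson's r was positive in 18 pairs, with a median of 0.22. It was highest for Tff3 with Fcgbp (r = 0.90, exact p = 0.00332; rho = 0.69, exact p = 0.0694), followed by Muc2 with Fcgbp (r = 0.87, exact p = 0.00858; rho = 0.81, exact p = 0.0218). Muc2 with Tff3 gave r = 0.78 (exact p = 0.0192; rho = 0.62, exact p = 0.115). After Benjamini-Hochberg adjustment over the 21 pairs, 0 of 21 passed for r (0.0698, 0.0901 and 0.134 for these 3 pairs) and 5 had an unadjusted p under 0.05. The adjusted p values for rho were 0.291, 0.229 and 0.345.

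Without the 2 arrays farthest from the median of the first gene, r fell to 0.70 for Tff3 with Fcgbp (without control replicate 1 and mutant replicate 1), to 0.43 for Muc2 with Fcgbp and to 0.25 for Muc2 with Tff3 (both without control replicate 3 and mutant replicate 1). Leaving out the most extreme arrays narrows the range of the first gene, which in itself lowers r. Without mutant replicate 1 alone, r was 0.83 for Muc2 with Fcgbp and 0.69 for Muc2 with Tff3. Each slide row held 4 arrays, too few for a value within rows. Agr2 and Zg16 did not follow Muc2: r was 0.11 (exact p = 0.817; rho = 0.29, exact p = 0.501) and 0.05 (exact p = 0.899; rho = -0.19, exact p = 0.665), with 1.00 (r) and 0.821 (rho) after adjustment for both. Without control replicate 3 and mutant replicate 1 these were -0.18 and -0.72. Muc13 with Muc2 gave r = 0.21 (exact p = 0.641; rho = 0.21, exact p = 0.619), and -0.74 without the same 2 arrays. Spdef with Muc2 gave r = 0.66 (exact p = 0.0705; rho = 0.81, exact p = 0.0218), with 0.247 (r) and 0.229 (rho) after adjustment. Without the same 2 arrays that r was 0.55. With Tff3 and Fcgbp, Spdef gave r = 0.73 and 0.72 (exact p = 0.0420 and 0.0424), with 0.178 after adjustment for both.

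Control replicate 2, which alone among the controls had 2 floxed alleles, lay within the range of the other 3 controls for all 7 genes. Its Muc2 level was 2.98, between 2.81 and 3.46, and its Spdef level 2.43, between 2.34 and 2.51. The arrays lay in 2 rows of 1 slide, each with 2 controls and 2 mutants, and the differences within rows had opposite signs for 4 of the 7 genes. For Muc2 they were 0.29 and -0.19, for Tff3 0.29 and -0.20, for Fcgbp 0.23 and -0.09, and for Muc13 0.08 and -0.18. Both rows gave a lower mutant mean for Zg16 (-0.28 and -0.12) and Agr2 (-0.14 and -0.09), and a higher one for Spdef (0.22 and 0.07).

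The profile most like each gene was sought among 19899 tested probes with a plain gene symbol, as the smallest root mean square difference over the 8 arrays after each probe was centred on its own mean. The nearest were Mvp and Notch4 for Fcgbp (0.022 and 0.024), Ush1c and Mapk3 for Tff3 (0.031 and 0.034), and Msl3 and Cwc15 for Muc13 (0.032 and 0.032). For Spdef they were Tmem108 and Pclo (0.035 and 0.037), and for Agr2 Ptges3 and Arpc5l (0.042 and 0.046). For Muc2 they were Nuak2 and Antxrl (0.066 and 0.072), and for Zg16 the nearest was Lgr5 (0.081). None of these probes belongs to a gene of the goblet lists, and with 8 arrays and 19899 candidate probes such nearness is a description only.

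The wider goblet programme was read through 5 lists with 74 genes, of which 73 were found on the array by name and 67 were tested. In limma 0 of the 67 passed, beside 0.0423% of all probes, and 4 had an unadjusted p under 0.05, beside 5.05% of all probes. That count is near the share over all probes. Their median difference was 0.0019, beside 0.02 over all probes tested, with 35 higher and 32 lower. The groups did not overlap for 0 higher genes and 4 lower ones, beside 2.81% and 1.56% of all probes.

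**Figure D4:**
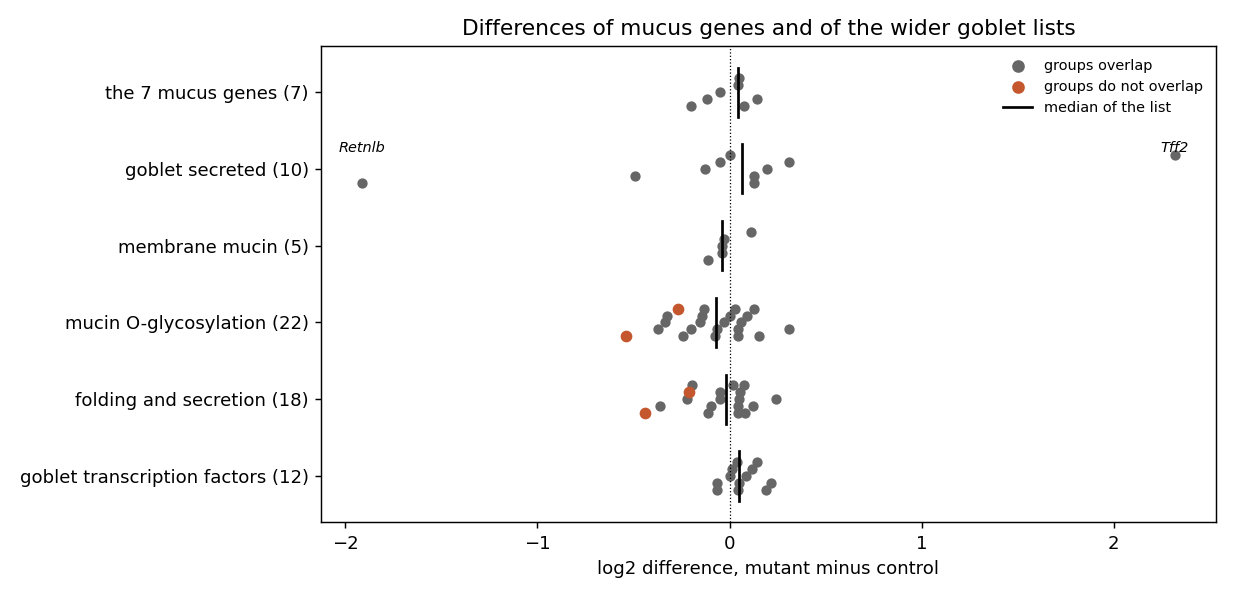
Log2 difference, mutant minus control (x axis), for the 7 mucus genes and for the tested genes of 5 goblet lists (number of genes in brackets), with the median of each list as a black line and genes whose groups did not overlap in orange. The list medians lie between -0.07 and 0.06, and the outlying points of the secreted list are Retnlb and Tff2.

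Of 13 other secreted products of goblet or mucous cells 10 were tested, 6 higher and 4 lower, and 0 passed, with a median of 0.06. Ccl28, a chemokine of mucosal epithelia, was the 1 gene of the 10 with an unadjusted p under 0.05, at -2.75 to -2.16 in controls and -3.28 to -2.62 in mutants, with overlap (-0.49, SE 0.18, adjusted p = 0.828 by limma). Clca1, a metalloprotease abundant in goblet cell mucus, stood at 6.78 ± 0.08 and 6.78 ± 0.21 (SD, n = 4 each), a difference of 0.0007 (SE 0.12). Spink4, a small goblet cell inhibitor-like peptide, stood at 4.96 ± 0.18 and 5.09 ± 0.23. Retnlb, a secreted resistin-like protein of goblet cells, was either high or low: control replicates 1 and 3 and mutant replicate 1 lay at 4.67 to 4.98, and the other 5 arrays at -6.17 to -4.36 (adjusted p = 0.883 by limma). On control replicate 4 it was not well above background.

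Some products typical of stomach mucus, though not all those listed, were high on 1 array. Tff2, a trefoil peptide of gastric mucous cells, stood at 2.89 on mutant replicate 3, at -4.47 to -2.94 on the other mutants and at -4.64 to -3.78 in controls. The difference was 2.32 (SE 1.39, adjusted p = 0.828 by limma), and 0.71 without that array. Tff1 and Muc6, also of gastric mucus, were well above background on mutant replicate 3 (-0.17 and -2.97) and on none of the other 7 arrays, and the stomach gene Gkn3 was at 2.33 there against -2.43 to -1.88 on all others. Mutant replicate 3 was also the lowest array for Muc13, and its part in that value was not tested. The 5 tested stomach genes summed to 2.49 on that array, with Gkn3 as the largest term, and to -0.81 to 0.20 on the other 7. The stomach gene Ctse was also highest there, at -3.02 (controls -4.31 to -4.02, other mutants -4.27 to -3.88). Pgc was highest there by a small margin, at -2.94 beside -2.96 on mutant replicate 1. Other listed genes were not high there: the stomach genes Gkn1 and Pga5 stood at -5.44 (controls -5.72 to -4.79) and -1.63 (controls -1.27 to -0.51), and the mucin Muc5ac at -3.88 (controls -4.24 to -3.70).

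Of 7 other membrane mucins and mucin-like proteins, Muc3 was not found by name and 5 were tested, 1 higher and 4 lower, with 0 called and a median of -0.04. Those with the largest differences were Muc20 (-0.11, SE 0.10) and Muc1 (0.11, SE 0.24), both with an adjusted p of at least 0.828 in limma. Muc20 and Muc1 were well above background on all 8 arrays.

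The O-glycosylation list holds enzymes that start, extend and cap the sugar chains of mucins, and 22 of its 24 genes were tested, 9 higher and 13 lower, with 0 called and a median of -0.07. Galnt3, which adds the first sugar, stood at 2.17, 1.98, 2.33 and 2.14 in controls and at 1.32, 1.64, 1.79 and 1.70 in mutants. All 4 mutants lay below all 4 controls, with a difference of -0.54 (SE 0.13, adjusted p = 0.573 by limma), and -0.44 without mutant replicate 1. C1galt1c1, the chaperone of the core 1 enzyme, stood at 3.27 to 3.34 in controls and 2.63 to 3.20 in mutants, also without overlap. Its difference was -0.27 (SE 0.14, adjusted p = 0.828 by limma), and -0.14 without mutant replicate 1, which held the lowest value.

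St3gal3, a sialyltransferase, had the next largest difference (-0.37, SE 0.36), with mutant replicate 2 at 2.12 and all other arrays at 3.47 to 4.05. For St6galnac1, which adds sialic acid to the first sugar, the 2 probes disagreed. The brighter one gave -0.14 (SE 0.22) with overlapping groups. The other gave -0.69 (SE 0.19, adjusted p = 0.725 by limma), from -2.24 ± 0.28 to -2.94 ± 0.29 (SD, n = 4 each), without overlap, and was picked out after its values were seen.

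All 18 genes of protein folding and granule release were tested, 9 higher and 9 lower, with 0 called and a median of -0.02. Ero1a, an oxidase that drives disulphide formation, stood at -0.15, -0.39, -0.17 and -0.29 in controls and at -0.90, -0.49, -0.64 and -0.71 in mutants. The groups did not overlap, with a difference of -0.44 (SE 0.11, adjusted p = 0.697 by limma). Ero1b, the related oxidase of secretory cells, stood at -0.68 to -0.65 in controls and at -1.23 to -0.71 in mutants, with a difference of -0.21 (SE 0.13, adjusted p = 0.828 by limma), and -0.09 without mutant replicate 4, the lowest. Hsp90b1, a chaperone of the endoplasmic reticulum, had a difference of -0.36 (SE 0.21), with mutant replicate 1 at 4.92 and the other 7 arrays at 5.70 to 6.15. Without that array the Hsp90b1 difference was -0.15.

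The stress sensor Ern2, which is typical of goblet cells, differed by 0.05 (SE 0.12), and Xbp1, the factor that such sensors activate, by 0.04 (SE 0.09). The groups of both overlapped.

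All 12 transcription factors linked to goblet or secretory fate were tested, 10 higher and 2 lower, with 0 called and a median of 0.05. The list was not limited to factors that promote this fate, so the count has no single reading. Without mutant replicate 1 the differences of Foxa2, Foxa3, Elf3, Sox9 and Cdx2 were -0.09, -0.05, -0.08, -0.08 and -0.07, each with the sign turned. That of Ehf turned the other way, to 0.00035. Atoh1, which commits progenitors to the secretory lineage, stood at 0.03, 0.04, 0.19 and 0.03 in controls and at 0.39, 0.27, 0.35 and 0.15 in mutants. Mutant replicates 1, 2 and 3 lay above every control and mutant replicate 4 below control replicate 3, with a difference of 0.22 (SE 0.09, adjusted p = 0.828 by limma). Bhlha15, a factor of cells with a large secretory apparatus, had a difference of 0.19 (SE 0.10, adjusted p = 0.828 by limma), from -2.78 ± 0.04 to -2.59 ± 0.15 (SD, n = 4 each).

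The tissue label was read through markers of the gut epithelium. Vil1, a brush-border protein, stood at 6.39 ± 0.04 and 6.49 ± 0.29 (SD, n = 4 each), and Fabp2, a fatty acid carrier of enterocytes, at 8.96 to 9.08 in controls and 8.81 to 9.24 in mutants, and both were well above background on all 8 arrays. Of 8 epithelial, 8 enterocyte and 6 tested Paneth cell genes 0 passed in limma, with medians of 0.05, 0.04 and 0.03. An unadjusted p under 0.05 was found for 0, 0 and 1 of them, beside 5.05% of all probes. That 1 was Defa-rs7, a Paneth cell defensin of a family of near-identical genes, whose signal is therefore uncertain. It stood at -3.39 to -3.20 in controls and at -1.22, -1.55, -1.63 and -3.20 in mutants (1.40, SE 0.38, adjusted p = 0.762 by limma), and passed in 1 of 17 alternatives (adjusted p = 0.00415 by limma). Of 7 mesenchyme and muscle and 7 gut region genes 0 passed, with medians of 0.10 and -0.11. In these lists 0 and 1 had an unadjusted p under 0.05, beside the same 5.05% of all probes. The 1 was Fabp6, a bile acid carrier of the ileum, at 2.30, 4.10, 3.43 and 4.50 in controls and 6.48, 6.10, 5.81 and 5.25 in mutants. Its groups did not overlap, with a difference of 2.33 (SE 0.47, adjusted p = 0.378 by limma). Of the 7 gut region genes 3 were higher and 4 lower. The lowest difference was that of Slc10a2, at -0.32 (SE 0.47, adjusted p = 0.861 by limma), with mutant replicate 1 at -5.47 and the other mutants at -3.59 to -3.18. The part of gut region in the mucus gene values was not tested.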

How the data were processed

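Per the labels' protocols, TRI-reagent was used for extraction, and 100 ng of total RNA went into amplification and cyanine 3 labelling. Per the file headers, the authors read 1 slide in 1 scan with Agilent Feature Extraction 10.10.1.1 (array design 028005, mm9) and deposited linear spot intensity values, background-subtracted and detrended within each array but not normalised between arrays. Their deposited value table holds linear intensity with the same quartiles in all 8 columns, and served as an alternative.

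Levels are log2 of the processed intensity less the 75th percentile of its array on that scale. Control and outlier spots (117 to 157 per array) were left out, no non-control spot was saturated, and spots of a probe were averaged. A probe was tested when well above background on at least 4 of 8 arrays, which kept 35471 of 55681. The test was limma 3.58.1 (R 4.3.3) on both groups, without covariates, two-sided, with Benjamini-Hochberg adjustment over all tested probes. For a listed gene with several tested probes, the brightest stands for it, and genes are named as in the array files. On simulated data of this comparison (35471 probes, of which 50 were changed by each size), log2 differences of 0.5, 1, 2 and 4 were recovered in 10%, 58%, 86% and 98% of cases. More probes were changed there than the 15 called in the data, which makes the adjusted threshold easier to pass. These shares can therefore be too high for the 7 mucus genes, which needed 0.70 to 1.51. The number of arrays limits the precision.

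The members and lists were chosen with earlier results of these data known. Named are all members, called genes of any list, in each of the 5 goblet lists up to 3 genes without overlap and the 2 with the largest difference, Rfx6, other lists' genes where they stand beside a member, plus the 2 nearest profiles per member, of which 1 is not reported here. Genes described as examples beyond this rule (Clca1, Spink4, Ern2, Xbp1, Tff1, Muc6, Gkn1, Gkn3, Pga5, Ctse, Pgc, Muc5ac, Ccl28, Defa-rs7, Fabp6, Slc10a2, Cela2a, Amy2a5, Clps, Ctrb1, Cpb1, Sycn, Vil1, Fabp2, St6galnac1, Foxa2, Foxa3, Elf3, Ehf, Sox9, Cdx2) were chosen after their values were seen. The 17 alternatives were another background correction, quantile scaling, the deposited table, 2 filters, 1 probe per gene, slide row or replicate number as a block, array weights and each array left out.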

Additional observations from a re-analysis of the deposited data

Results flagged for a closer look

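In 40 groups of 4 arrays, those of the 7 mucus genes, the 12 named list genes and Rfx6, 6 had a highest or lowest value set apart by Dixon's ratio at 95%. Chance marks about 1 group in 20, a rate that does not hold for the list genes, which were named for their values on the same arrays. Of the 14 groups of mucus genes 1 did: Fcgbp on mutant replicate 1 was at 6.99, with the other mutants at 6.56 to 6.61. The same array was far from the other mutants for Retnlb (4.98, others -5.11 to -4.36), C1galt1c1 (2.63, others 3.12 to 3.20) and Rfx6 (-5.52, not well above background there, others -3.37 to -3.02). Control replicate 3 was far from the other controls for Atoh1 (0.19, others 0.03 to 0.04), and control replicate 1 for Bhlha15 (-2.84, others -2.77 to -2.76).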

How the results depend on the processing

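Over 17 alternatives the 7 mucus genes gave 119 refitted differences, of which 0 passed in limma (adjusted p 0.618 to 1.00, differences -0.31 to 0.20), and 107 kept their sign. The other 12 turned it: with the deposited table Muc2 (-0.00046), Tff3 (-0.082) and Fcgbp (-0.053), with quantile scaling Tff3 (-0.10) and Fcgbp (-0.0090), with array weights Tff3 (-0.038), and the rest on leaving out 1 array. The cause was not tested. With both filters, 1 probe per gene, slide row as a block and the replicate block, each difference was by design that of the main fit. The signs kept there were fixed in advance, though they count among the 107. With 1 array left out, ranges were -0.054 to 0.19 for Muc2, -0.13 to 0.051 for Muc13, -0.064 to 0.11 for Tff3, -0.026 to 0.16 for Fcgbp, -0.13 to 0.28 for Muc1, -0.62 to 0.020 for St3gal3 and -0.73 to 0.099 for Rfx6 (-0.11 with normexp). The median of the 7 ranged from -0.064 to 0.11, and 0 mucus genes and 0 goblet list genes passed in any alternative. Over all probes 15 passed, against 24 with normexp, 39 with array weights, 7 with the replicate block, 10 when all 8 arrays had to be above background, and 9 to 20 with 1 array left out (9 without control replicate 2 or mutant replicate 3). Deviations of same-numbered arrays correlated at -0.09, 0.09, 0.003 and 0.10, so the numbers were not taken as pairs, and the replicate block left all 7 differences as they were and called none. Retnlb was not tested when all 8 arrays had to be above background. All mucus gene probes were well above background, so detection did not limit these values.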
